A study of Rattus norvegicus with 6 samples.

Results

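The genes described here are 10 transcripts that depend on Wnt signalling in the hepatocytes around the central vein: Glul, Rgn, Axin2, Lgr5, Tbx3, Slc1a2, Rhbg, Nkd1, Rnf43 and Znrf3. They were chosen by name, and an array probe was taken as theirs where its RefSeq accession belonged to the gene. This found 18 probes for 9 of the 10 genes, among 15645 named genes in all; Znrf3 had no probe named in this way. Liver RNA came from 6 male Sprague-Dawley rats bought at 5 weeks of age, fed a basal diet and measured on 1-colour oligonucleotide arrays with 1 array per animal. Of these, 3 vehicle rats had been given corn oil and 3 had been given TBBC at 300 mg/kg/day. TBBC, whose rings are tert-butyl-m-cresol joined by sulfur, is an antioxidant used in rubber and plastics, and the labels do not say in what it was given. The labels also differ on the time, which is 28 days in the text of the series and 9 weeks in the treatment protocol.

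Blood crosses the liver lobule from the portal vein to the central vein, and hepatocytes differ along that path. Endothelial cells of the central vein release Wnt proteins and R-spondin, which keep beta-catenin active in the adjacent pericentral hepatocytes and maintain a set of transcripts there. In mouse and rat the best known of these is Glul, which encodes glutamine synthetase and is confined to a narrow rim of cells where ammonia that escaped the urea cycle is captured. Some members carry out metabolism or transport, and others are components or feedback inhibitors of the Wnt pathway whose transcripts serve as readouts of beta-catenin.

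The 75th percentile of probe intensity lay between 465.2 and 638.2 on the 6 arrays, and 60% to 64% of 61537 probes were well above background. The vehicle arrays lay on 1 slide and the TBBC arrays on another, scanned separately, so slide, scan and treatment cannot be told apart. Hepatocyte transcripts were abundant on every array, among them Ttr and Tf (plasma carriers of thyroid hormone and iron), with log2 differences of -0.03 ± 0.11 and -0.29 ± 0.12 (TBBC minus vehicle, ± SE, n = 3 per group). These are of the brightest probe of each gene, and the other probe gave -0.41 for Ttr and -0.01 for Tf. The pericentral enzyme Cyp2e1 was also bright, so that the RNA had the character that its label gives. In whole liver, fewer cells of a type and less RNA per cell cannot be told apart.

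Promoter sequence is shown for Glul and Rgn, the members that fell, and for Axin2, a direct beta-catenin target that did not pass the test. Beta-catenin acts through LEF/TCF factors, whose core was searched as CTTTG followed by AA, AT, TT or TA on either strand in the 250 bases before each annotated start (RefSeq, build GRCr8). Bases are given 5′ to 3′ on the gene's strand, and capitals mark a match. Glul has 2 annotated starts, which are shown in genome order.
Glul, chr13:68519250-68519499, plus strand: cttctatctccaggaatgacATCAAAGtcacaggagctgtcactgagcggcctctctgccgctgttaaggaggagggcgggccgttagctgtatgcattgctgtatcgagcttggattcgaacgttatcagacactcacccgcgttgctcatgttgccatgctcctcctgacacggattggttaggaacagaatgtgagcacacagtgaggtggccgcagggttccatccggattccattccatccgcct
Glul, chr13:68575816-68576065, plus strand: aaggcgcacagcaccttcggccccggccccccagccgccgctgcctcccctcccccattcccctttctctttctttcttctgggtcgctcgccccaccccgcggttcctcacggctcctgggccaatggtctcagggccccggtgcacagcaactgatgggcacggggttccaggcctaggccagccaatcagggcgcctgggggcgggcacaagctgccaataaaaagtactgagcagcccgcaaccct
Rgn, chrX:4187958-4188207, minus strand: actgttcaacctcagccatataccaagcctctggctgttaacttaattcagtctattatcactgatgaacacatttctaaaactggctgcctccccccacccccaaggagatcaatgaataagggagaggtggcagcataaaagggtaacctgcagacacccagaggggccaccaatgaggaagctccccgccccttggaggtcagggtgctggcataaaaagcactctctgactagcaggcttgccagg
Axin2, chr10:94398535-94398784, plus strand: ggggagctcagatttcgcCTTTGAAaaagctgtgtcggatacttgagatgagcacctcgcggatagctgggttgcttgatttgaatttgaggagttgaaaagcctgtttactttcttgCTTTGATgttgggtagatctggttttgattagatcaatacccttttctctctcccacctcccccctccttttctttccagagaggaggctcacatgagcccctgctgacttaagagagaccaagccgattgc
The first Glul window held ATCAAAG, which is CTTTGAT on the other strand, 230 bases before the start. The second Glul window and the Rgn window held none of these letters. The Axin2 window held CTTTGAA at 232 and CTTTGAT at 132 bases before the start. Windows were found for 7 members, 4 of their 9 windows held a match, and 14.9% of all 33469 windows did. A match is a description of the letters and not evidence of binding.

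Of the 8 members bright enough to be tested, 2 fell with TBBC, Glul and Rgn, and 0 rose. The genes that carry ammonia and glutamate across the membrane, Rhbg and Slc1a2, had higher mean levels with TBBC without passing the test. The transcripts of the pathway itself, Axin2, Nkd1 and Rnf43, differed by little. Across all 29326 features of the arrays, 3.08% passed the same test, of which those that fell were 1.4% and those that rose 1.68% of all features. Among the 11235 named genes 3.17% passed, with 1.29% lower and 1.88% higher. Groups did not overlap for 3 of the 8 members, against 31.1% of all features and 31.2% of named genes. The median log2 difference was -0.05 over the 8 members and -0.06 over all features, and 4 of the 8 differences were positive.

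Glul, glutamine synthetase, joins ammonia to glutamate. Relative to each array's 75th percentile, its signal was 8.06, 7.71 and 7.30 times that value in the vehicle rats and 4.58, 3.70 and 4.84 times in the TBBC rats. Every TBBC rat lay below every vehicle rat, and the vehicle rats lay close together. The level with TBBC was 56.6% of vehicle (95% interval 45.1% to 70.9%), a log2 difference of -0.82 ± 0.14 (limma adjusted p = 0.0361). A further probe of the same transcript read 4.55, 4.72 and 4.53 against 2.70, 2.31 and 3.03 times the 75th percentile. Its log2 difference of -0.79 was like that of the brighter probe. The call of Glul was lost when any single array was left out (log2 differences -0.90 to -0.71, limma adjusted p 0.0777 to 0.121). It was also lost with spike-in scaling, where the log2 difference was -0.60 (limma adjusted p = 0.151).

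Rgn encodes regucalcin, also called senescence marker protein, a calcium-binding lactonase that serves the synthesis of vitamin C in rodents. Its signal was 60.3, 56.6 and 53.8 times the 75th percentile in the vehicle rats and 38.0, 25.2 and 28.9 times in the TBBC rats. The groups did not overlap, and TBBC replicate 1 was the highest of its group. The level with TBBC was 53.2% of vehicle (95% interval 40.2% to 70.5%), a log2 difference of -0.91 ± 0.17 (limma adjusted p = 0.0455). Leaving out an array kept the call only without TBBC replicate 1 (log2 difference -1.07, limma adjusted p = 0.0390); without each of the others the difference was -0.95 to -0.78 and the limma adjusted p 0.0902 to 0.139. With spike-in scaling it was -0.69 (limma adjusted p = 0.126). Scaling on spike-in controls shifted every log2 difference by the same amount, and their median over all features went from -0.06 to 0.16. Relative to the median of all features Glul lay at -0.76 and Rgn at -0.85, values that a constant per array leaves fixed by construction.

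Slc1a2 encodes the glutamate transporter GLT-1, which in rodent liver is found in the same pericentral cells as glutamine synthetase. Its brightest probe read 0.681, 1.095 and 0.427 times the 75th percentile in the vehicle rats and 1.83, 2.85 and 1.45 times in the TBBC rats. All TBBC rats lay above all vehicle rats, in the direction opposite to Glul, but the animals of each group were spread widely. The log2 difference was 1.52 ± 0.39, or 287% of vehicle (95% interval 151% to 548%), and did not pass (limma adjusted p = 0.0926). The other probes gave 1.42 and 1.80 on the log2 scale, and the groups did not overlap in either of them. The difference passed with spike-in scaling (1.74, limma adjusted p = 0.0297).

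Rhbg encodes a membrane channel for ammonia. Its signal was 1.93, 3.06 and 1.37 times the 75th percentile in the vehicle rats and 3.05, 4.56 and 5.22 times in the TBBC rats. TBBC replicate 1 and vehicle replicate 2 were nearly equal, so the groups overlapped. The log2 difference was 1.05 ± 0.33, or 208% of vehicle (95% interval 120% to 360%), and did not pass (limma adjusted p = 0.135). In both Slc1a2 and Rhbg, vehicle replicate 3 was the lowest array and vehicle replicate 2 the highest of the vehicle group. On the brighter Glul probe vehicle replicate 3 was also the lowest of the vehicle group, but vehicle replicate 1 was the highest. The further Glul probe had the same vehicle order as Slc1a2 and Rhbg, at 4.55, 4.72 and 4.53 times the 75th percentile.

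Tbx3 encodes a T-box transcription factor that beta-catenin induces in pericentral cells. Its brighter probe read 1.43, 0.889 and 1.72 times the 75th percentile with vehicle and 1.82, 2.04 and 1.62 times with TBBC. Vehicle replicate 2 was low and the rest overlapped. The log2 difference was 0.49 ± 0.25 (95% interval -0.11 to 1.09, limma adjusted p = 0.295), and the dimmer probe gave 0.23.

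**Figure D1:**
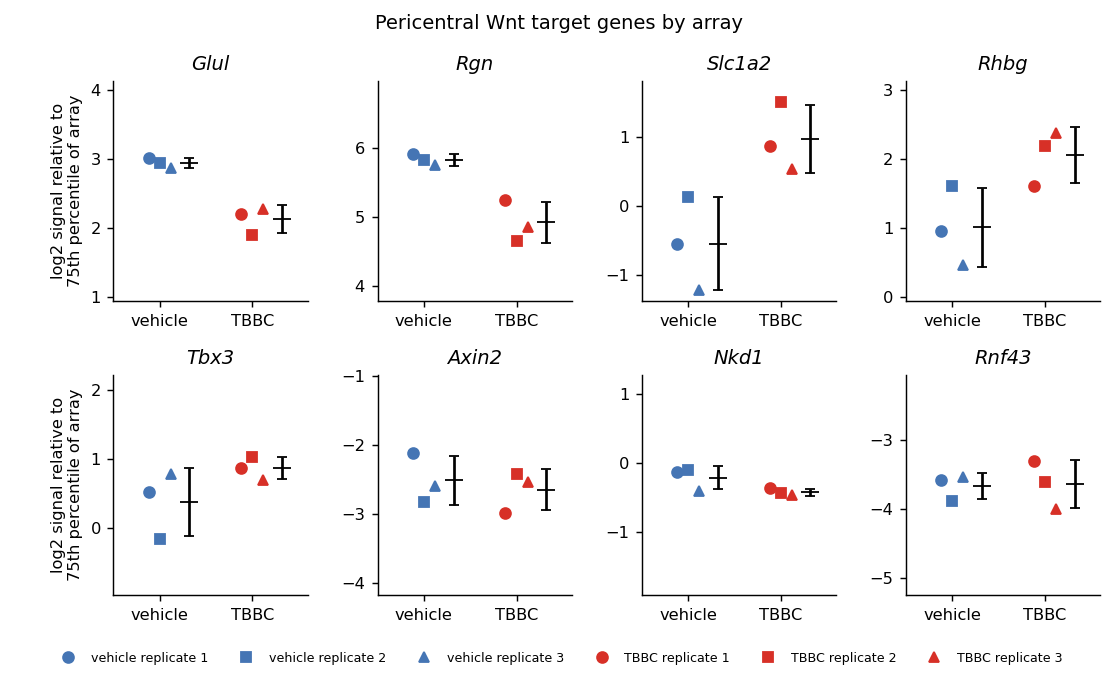
Signal of 8 genes on each array, as log2 relative to the array's 75th percentile, with every panel spanning the same range; symbols are replicates, and the black bar is the group mean with its SD (n = 3). Glul, Rgn and Slc1a2 show groups that do not overlap, with TBBC lower in Glul and Rgn and higher in Slc1a2.

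The members that belong to the Wnt pathway were dim or moderate and showed no difference that passed. Axin2, a scaffold of the complex that degrades beta-catenin and a general feedback target, read 0.231, 0.142 and 0.166 times the 75th percentile with vehicle and 0.127, 0.188 and 0.172 times with TBBC. The groups overlapped throughout, and the log2 difference was -0.13 ± 0.23 (95% interval -0.69 to 0.42, limma adjusted p = 0.750). With spike-in scaling, which shifts all log2 differences alike, it was 0.09.

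Nkd1, which binds Dishevelled and dampens Wnt signals, read 0.910, 0.932 and 0.754 times the 75th percentile with vehicle and 0.775, 0.735 and 0.722 times with TBBC. TBBC replicate 1 was just above vehicle replicate 3. The log2 difference was -0.21 ± 0.12 (95% interval -0.51 to 0.08, limma adjusted p = 0.345), or 0.0088 with the uniform shift of spike-in scaling. Its other probes gave 0.13 and -0.01, so the 3 probes did not share a direction.

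Rnf43 encodes a ubiquitin ligase that removes Frizzled receptors from the cell surface, as Znrf3 does. It read 0.0836, 0.0681 and 0.0863 times the 75th percentile with vehicle and 0.102, 0.0826 and 0.0630 times with TBBC. The log2 difference was 0.04 ± 0.20 (95% interval -0.45 to 0.52, limma adjusted p = 0.930), with normexp background correction -0.14, and its dimmer probe gave 0.39. Lgr5, an R-spondin receptor, had 3 probes and was not tested. Its brightest probe was well above background on 1 vehicle and 1 TBBC array and the other probes on 0, with signals of at most 0.0520 times the 75th percentile. A difference in Lgr5 was therefore not detectable on these arrays.

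**Figure D2:**
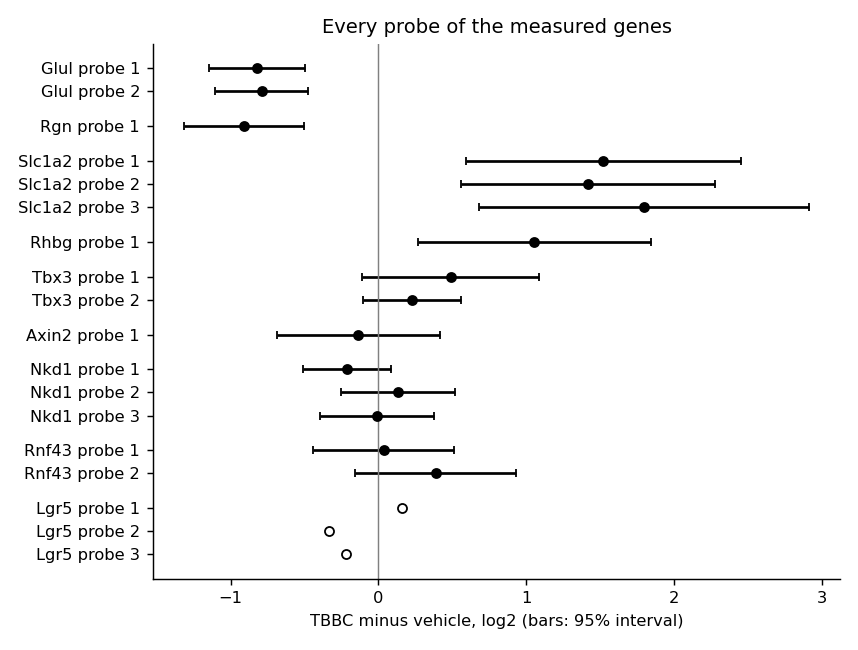
Log2 difference, TBBC minus vehicle, for each of the 18 probes, numbered within a gene from the brightest in vehicle; bars are 95% intervals of the limma fit of every probe on its own, and open points are Lgr5 probes too dim to be tested. Both Glul probes and the Rgn probe lie below 0, and all 3 Slc1a2 probes and the Rhbg probe lie above 0.

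Glul is also described as a ratio to each other tested member within the same array, which scaling an array by a constant cannot change. Each difference in ratio is the difference of Glul less that of the other gene, so these values are the ones above in another form. The log2 ratio of Glul to Slc1a2 was lower with TBBC by a difference of -2.34, from 3.56, 2.82 and 4.10 in the vehicle rats to 1.32, 0.38 and 1.74 in the TBBC rats. That of Glul to Rhbg differed by -1.88, to Tbx3 by -1.31, to Rnf43 by -0.86, to Axin2 by -0.69 and to Nkd1 by -0.61. That of Glul to Rgn differed by 0.09, with vehicle values of -2.90, -2.88 and -2.88 and TBBC values of -3.05, -2.77 and -2.58. Groups did not overlap for Slc1a2, Rhbg, Tbx3, Rnf43 and Nkd1, but neither did they for 77.3% of all other features set against Glul, so these pairs were not set apart from the rest of the array. The smallest two-sided p that an exact permutation test of 3 rats against 3 can give is 0.10, so none of the 7 pairs could pass.

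**Figure D3:**
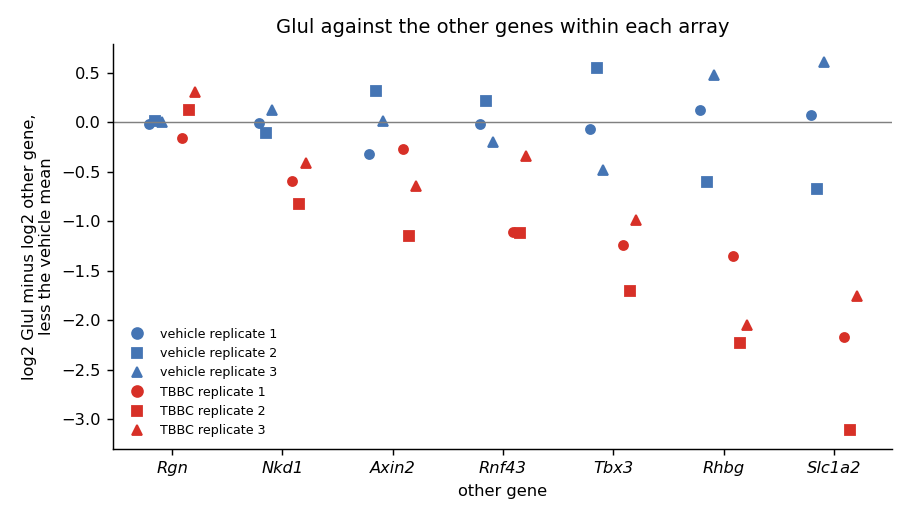
Log2 ratio of Glul to each other member on each array, less the mean ratio of the vehicle rats (vertical axis, log2); symbols are replicates. The mean ratio to Rgn differs by 0.09 between the groups, with a wider spread in the TBBC rats (SD 0.24) than in the vehicle rats (SD 0.015). The TBBC rats lie lowest for Slc1a2 and Rhbg.

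Genes of the Wnt pathway that are not members were grouped into ligands, receptors, inhibitors and intracellular parts. These lists, like the members, were chosen with earlier results known. Of 13 tested Wnt receptors, 3 fell, 0 rose and 10 did not pass, and their median log2 difference was -0.35. Lrp5, a co-receptor that binds Wnt together with Frizzled, fell by 0.88 ± 0.11 on the log2 scale (limma adjusted p = 0.0217), and its 2 probes gave -0.88 and -0.72. Its values on the log2 scale were 2.93, 2.97 and 2.82 with vehicle and 2.14, 2.03 and 1.91 with TBBC. Lgr4, an R-spondin receptor related to Lgr5, fell by 0.82 ± 0.12 (limma adjusted p = 0.0272), and Ror1, a receptor for non-canonical Wnts, fell by 1.07 ± 0.19 (limma adjusted p = 0.0418). Leaving out single arrays kept their direction, and Lrp5 passed only without TBBC replicate 1 (limma adjusted p 0.0453 to 0.0874 over the 6), Ror1 only without vehicle replicate 3 (0.0431 to 0.132) and Lgr4 in none (0.0713 to 0.0932). With spike-in scaling none of the 13 passed, and the values were -0.66, -0.60 and -0.85 for Lrp5, Lgr4 and Ror1.

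Wnt ligands were mostly dim. Of 23 ligand and secretion genes with a probe, 9 could be tested and none passed by limma, while 2 had an unadjusted p under 0.05. Unadjusted p of that size were common on these arrays: for Porcn a limma p of 0.0470 became 0.211 when adjusted over all features. The share of all features under 0.05 unadjusted is not given, so such counts do not set a list apart. Their median log2 difference was 0.06. The acyltransferase Porcn, needed for Wnt secretion, differed by -0.44 ± 0.18 and Rspo3, the R-spondin of the central vein, by 0.30 ± 0.29. Wnt9b, made by central vein endothelium, differed by 0.24 ± 0.31 and Wnt7a by 0.70 ± 0.18 (limma adjusted p = 0.0934); these 2 were named after their values were seen. The second Wnt7a probe gave 0.08. Of 6 tested inhibitors none passed and 0 had an unadjusted p under 0.05, with the Wnt deacylase Notum at -0.01 ± 0.19 and Dkk3 at 0.16 ± 0.22. Of 23 genes of the beta-catenin core and destruction complex none passed and 2 had an unadjusted p under 0.05. Their median was -0.06, with the kinase Csnk1d at 0.18 ± 0.11 and Dvl1, an adaptor of the receptor, at -0.06 ± 0.12. Beta-catenin itself, Ctnnb1, differed by 0.32 ± 0.12 (limma adjusted p = 0.192) and was named after its values were seen.

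**Figure D4:**
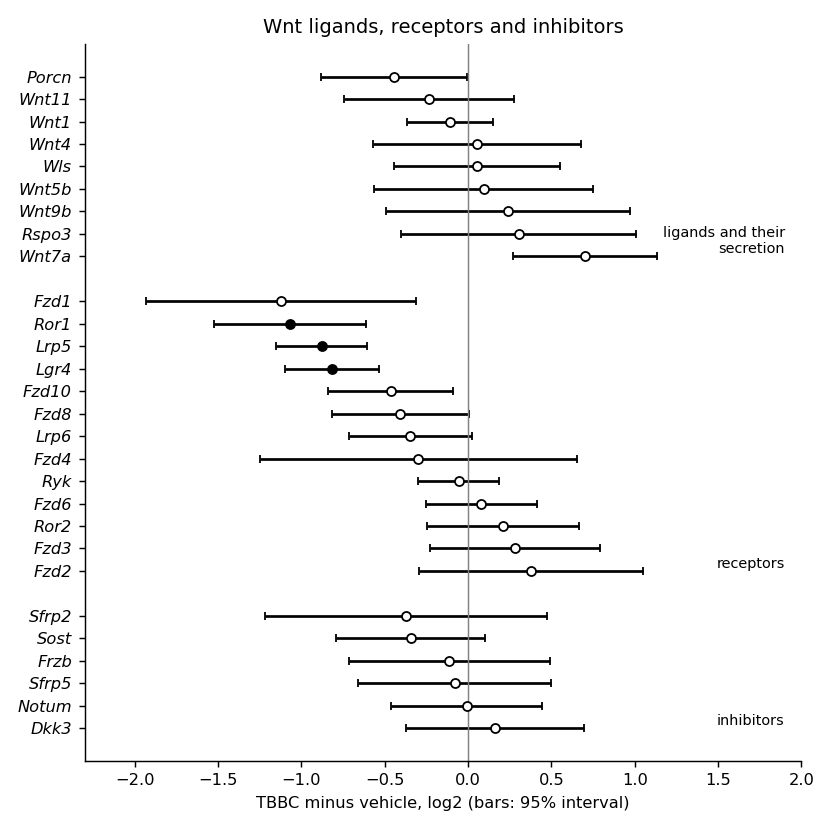
Log2 difference, TBBC minus vehicle, with 95% interval for the tested genes of the Wnt ligand and secretion, receptor and inhibitor lists; filled points passed the limma test at an adjusted p of 0.05. The 3 filled points are the receptors Ror1, Lrp5 and Lgr4, all below 0.

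Other transcripts of pericentral hepatocytes were examined next. Among the 24 that could be tested, 4 were called higher and 0 lower, leaving 20 that did not pass, with a median log2 difference of 0.04. Aldh1a1, a retinal dehydrogenase, rose by 1.44 ± 0.14 and the glutathione transferase Gstm1 by 1.13 ± 0.18, and probes of Gstm1 can bind RNA of related transferases. Ahr, the aryl hydrocarbon receptor, rose by 1.05 ± 0.19 and the electron carrier Cyb5a by 0.75 ± 0.12. Without single arrays, Aldh1a1 was lost only without TBBC replicate 2, Gstm1 passed only without TBBC replicate 3, Ahr only without TBBC replicate 1 and Cyb5a in 0 of 6. The enzymes Cyp2e1 and Cyp1a2, which also depend on beta-catenin in mouse liver, differed by -0.23 ± 0.14 and -0.55 ± 0.22 (limma adjusted p = 0.367 and 0.209). Oat, an ornithine aminotransferase found with glutamine synthetase, differed by -0.63 ± 0.25 (limma adjusted p = 0.204). Car3, a carbonic anhydrase, had the widest difference of the list at -3.20 ± 1.00 and did not pass (limma adjusted p = 0.135). Cyp2e1, Cyp1a2, Oat and Car3 were named after their values were seen.

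Of 22 periportal genes, which mark hepatocytes at the opposite end of the lobule, 2 fell and 0 rose, with a median of -0.18. These were the apolipoproteins Apoa4 and Apoc2, with log2 differences of -3.20 ± 0.42 and -0.79 ± 0.11. Apoc2 passed in 0 of the 6 fits without single arrays (limma adjusted p 0.0581 to 0.0936) and did not pass with spike-in scaling (-0.57, limma adjusted p = 0.155). Leaving out single arrays, Apoa4 passed only without TBBC replicate 1. Of 29 genes that handle ammonia and glutamine, 1 fell, 27 did not pass and 1, Slc7a5, was bright enough only with TBBC, with a median of -0.13. Asns, which uses glutamine to make asparagine, fell by 1.65 ± 0.24 (limma adjusted p = 0.0282), and without single arrays it passed only without TBBC replicate 1. Slc7a5, a carrier that exchanges glutamine for large amino acids, was too dim to stand well above background in the vehicle rats and entered the test only through the TBBC rats, so its call is not counted here. On the processed signal its TBBC mean was at least 2.45-fold a bound on the vehicle mean. For that bound each vehicle array counts with its dimmest signal that stood clear of background, or with the probe's own signal if that was higher. With normexp background correction its log2 difference was 0.41 (limma adjusted p = 0.0995), below that value, so the bound depends on how background was removed. Gls2, the periportal glutaminase that opposes glutamine synthetase, differed by 0.11 ± 0.20 and was named after its values were seen. Of 8 genes around vitamin C synthesis, Rgn fell, Ugt1a1 rose by 1.22 ± 0.22 and 6 did not pass; Ugt1a1 shares exons with other Ugt1a genes, so its probe may read several of them, and it passed only without TBBC replicate 1 when single arrays were left out. Gulo, the last enzyme of the pathway, differed by -0.37 ± 0.12 (limma adjusted p = 0.145) and was named after its values were seen.

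Over the 6 arrays the genes with log2 values most like those of Glul were Arl3 (Pearson r = 0.998), Stat5a (0.995), Or2t48e (0.993), Plekhb1 (0.993) and Mrpl2 (0.990). Among them Stat5a and Plekhb1 fell, with log2 differences of -0.79 ± 0.12 and -1.299 ± 0.22 (limma adjusted p = 0.0303 and 0.0363). Arl3 differed by only -0.27 ± 0.10 and did not pass. For Rgn they were Klhl29 (0.995), Acnat2 (0.994), Cars1 (0.994), Ppp1r12b (0.994) and Bmf (0.993). Acnat2, Cars1 and Bmf fell, with log2 differences of -3.60 ± 0.58, -1.18 ± 0.18 and -2.65 ± 0.48 (limma adjusted p = 0.0336, 0.0313 and 0.0437). Glul and Rgn correlated with each other at 0.959, and Rgn ranked 92 among 11234 named genes by likeness to Glul. These values describe 6 arrays in 2 groups, where any genes that separate the groups correlate. The genes were picked for tracking a member that fell, so their direction is not a separate result. Their calls are not followed over the alternative settings.

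Markers of other cells were examined beside these results, as sums of signal in multiples of the 75th percentile. The 15 hepatocyte markers summed to between 7307 and 8675 with vehicle and between 6754 and 6974 with TBBC, which do not overlap. Groups did not overlap for 31.1% of single features either, and no such share was computed for sums. In that list 1 fell, the plasma protein gene Ahsg, by 0.83 ± 0.12 on the log2 scale (named after its values were seen), and 0 rose. Ahsg passed in 0 of the 6 fits without single arrays (limma adjusted p 0.0512 to 0.105). Among 6 tested biliary markers Epcam, an adhesion molecule of bile duct and progenitor cells, rose by 1.83 ± 0.21 and the other 5 did not pass. The biliary sum was 1.67 to 1.84 with vehicle and 3.18 to 4.61 with TBBC, and without Epcam it was 0.705 to 1.17 and 0.831 to 0.972, which overlap. Epcam did not pass without vehicle replicate 1 (limma adjusted p = 0.0637). None of the 10 endothelial markers passed, with Kdr at -0.03 ± 0.22 and Fcgr2b at 0.44 ± 0.37 and sums of 34.1 to 64.8 and 45.7 to 52.3. The 1 with an unadjusted p under 0.05 was Fabp4, named after its values were seen. Fabp4 was well above background on 1 vehicle array and 3 TBBC arrays. It entered the test only through the TBBC rats, so its p carries no weight here. Of 10 stellate and fibroblast markers Rgs5, a pericyte gene named after its values were seen, rose by 0.95 ± 0.12 (0 of 6 without single arrays), while Col3a1 and Col1a2 differed by 0.11 ± 0.19 and -0.24 ± 0.19. These 10 summed to 27.6 to 37.0 with vehicle and 27.2 to 35.7 with TBBC. None of 12 Kupffer and myeloid markers passed (0 with an unadjusted p under 0.05; Clec4f -0.02 ± 0.37, C1qb -0.07 ± 0.38), and their sums overlapped at 110 to 221 and 114 to 245. None of 8 T, B and NK cell markers passed (2 with an unadjusted p under 0.05; Nkg7 -0.29 ± 0.15, Cd3d -0.34 ± 0.12), with sums of 3.22 to 3.61 and 2.13 to 3.12, which do not overlap. Counts by unadjusted p here, as for the Wnt lists, do not set a list apart from all features. Cd3e and Cd2 were not well above background on any array. The part of cell composition in the differences of Glul and Rgn was not tested.

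**Figure D5:**
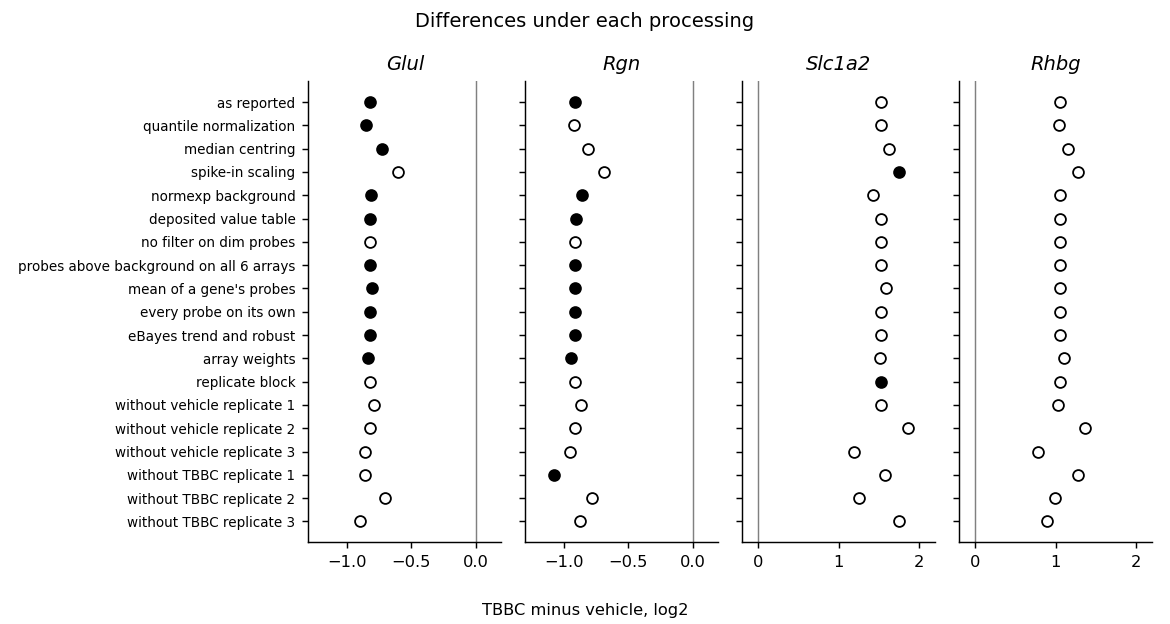
Log2 difference, TBBC minus vehicle, of Glul, Rgn, Slc1a2 and Rhbg as reported and under each of 18 other settings; filled points passed the limma test at an adjusted p of 0.05. Glul and Rgn stay below 0 and Slc1a2 and Rhbg above 0 in all 18, and Glul passed in 9, Rgn in 8, Slc1a2 in 2 and Rhbg in 0 of them.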

How the data were processed

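The files hold scanner output of 6 arrays. Per the file headers, the authors extracted spot intensity on a linear scale with Agilent Feature Extraction 10.7.1.1 (the submitters' processing notes give 10.7), and its processed signal is background-subtracted. The deposited value table also holds intensity, equal to the processed signal times 1 constant per array (ratio constant within 0.00621% for bright signals), and served as an alternative. The value used was log2 of the processed signal minus each array's 75th percentile over 61537 probes other than controls. Of these, 25 probes with outlier flags were dropped, and a filter kept 37222 probes that stood well above background in every replicate of 1 or both groups. RefSeq accessions in the table of GRCr8 named 28206 of all 61537 probes. Each gene was its probe with the highest mean, and unnamed probes stood alone, giving 29326 features. The headers name build rn4 for the array design, and its coordinates were not used; those printed are of GRCr8 promoter windows.

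TBBC was set against vehicle by a linear model without covariates (limma 3.58.1, R 4.3.3, eBayes, two-sided, Benjamini-Hochberg over all features, threshold 0.05). The fit was tested on simulated data. The labels speak of separate animals, and 3 arrays per group limit the precision. Rhbg, Rgn and Axin2 rest on a single probe.

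The members, lists and tests were chosen with earlier results of these data known. Named genes were all members, the list genes past the threshold or otherwise the 2 brightest, the 2 brightest markers of each cell type (1 of them is not reported here), and the 5 genes most correlated with Glul and with Rgn, leaving out names that are only identifiers. Other genes are marked where they are named as chosen after their values were seen. Alternatives were quantile normalization, median centring, scaling on 8 spike-in probes, normexp with offset 50 on median spot signals, the deposited table, other filters and probe rules, eBayes with trend and robust, array weights, a replicate block, and leaving out each array. Replicate numbers did not pair the arrays: deviations of same-numbered arrays correlated at -0.0216 to 0.144.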

Additional observations from a re-analysis of the deposited data

How the results depend on the processing

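Over 18 alternatives Glul and Rgn kept a negative and Slc1a2, Rhbg and Tbx3 a positive log2 difference. Among the members other than Glul, Rgn and Slc1a2, none passed in any of the 18. The list genes named as called passed in 9 (Lgr4, Apoc2, Ahsg) to 17 (Aldh1a1) of the 18 alternatives. Slc7a5, whose call is not counted, is left out of this range. The number of features past the threshold was 902; it was 1589 with normexp, 194 without a filter on dim probes, 211 with the replicate block and 104 to 365 without single arrays. Of the features that passed, 54.5% were higher with TBBC, against 70.9% with median centring and 81.5% with spike-in scaling. Of the members, 2 passed, but 1 with quantile normalization, median centring, spike-in scaling or the replicate block, 0 without a filter on dim probes and 0 to 1 without single arrays. Glul no longer passed with spike-in scaling (-0.60), without a filter (-0.82), with the replicate block (-0.82) or without single arrays (-0.90 to -0.71). Rgn no longer passed with quantile normalization (-0.92), median centring (-0.81), spike-in scaling (-0.69), no filter (-0.91) or the replicate block (-0.91), and without single arrays it lay between -1.07 and -0.78. Slc1a2 passed with spike-in scaling (1.74) and with the replicate block (1.52). Leaving out an array leaves fewer samples, and no filter tests more features; the cause of the other changes was not tested.

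Spike-in scaling raises the log2 difference of every feature alike, and under it the signs of Axin2 (0.086) and Nkd1 (0.0088) turned. Their distance from the median of all features was fixed by construction. Its constant differs between arrays, so the spread changed too: the SE went from 0.14 to 0.19 for Glul and from 0.39 to 0.31 for Slc1a2. Signs also turned for Axin2 without single arrays (-0.29 to 0.062) and for Rnf43 with normexp (-0.14), array weights (-0.014) and single arrays left out (-0.13 to 0.22). The ratio of Glul to Rgn ranged from -0.021 to 0.21 without single arrays. With spike-in scaling 1 Wnt ligand gene, 0 receptors, 1 vitamin C gene and 0 hepatocyte markers passed. Quantile normalization left 1 vitamin C gene, and normexp called 2 hepatocyte markers. The numbers did not pair the arrays: 2 of 6 arrays correlated best with their own number in the replicate block check. Members near background, as Lgr5, are limited by signal.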
